A study of Mus musculus with 10 samples.

Results

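The torsin family and its cofactors, 7 genes in all, were followed in the hippocampus of female P301S mice given dihydrotestosterone (DHT), an androgen that aromatase cannot convert to estrogen. The members are the 5 torsin genes Tor1a, Tor1b, Tor2a, Tor3a and Tor4a and the 2 cofactor genes Tor1aip1 and Tor1aip2, taken by symbol from the 56884 genes of the count table. The family was chosen by a measured value, the p of Tor3a, which was the lowest of all genes when DHT and void mice were compared in these counts, so the differences between the groups are given for the members as a description and support nothing about them. All 7 members had enough counts to be fitted.

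The mice were ovary-intact females of the PS19 line, in which the mouse Prnp promoter drives human Tau with the P301S mutation, and every mouse of both groups carried the transgene. At 6 months of age, 5 females received a subcutaneous SILASTIC implant with 10 mm of DHT powder and 5 received an empty (void) implant, and hippocampi were taken 12 weeks later, at 9 to 9.5 months. Each mouse gave 1 bulk RNA-seq library, and no group without the transgene was analysed here. Values are CPM, counts scaled to a common library size with edgeR's TMM factors.

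Torsins are AAA+ ATPases of the endoplasmic reticulum lumen and the space between the nuclear membranes. They hydrolyse ATP poorly alone and are switched on by LAP1, the inner nuclear membrane protein encoded by Tor1aip1, or by LULL1, its relative in the endoplasmic reticulum encoded by Tor1aip2. Torsins have been linked to nuclear pore assembly, to the complex that ties the nucleus to the cytoskeleton and to lipid synthesis at these membranes. Loss of a glutamate in torsinA, the product of Tor1a, causes an early-onset form of dystonia in people.

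Total counts ranged from 27188854 to 47113661 per library. Of the 8 hippocampal markers examined, all were detected, and their summed CPM of 1260 to 1860 in void mice overlapped with 1520 to 1880 in DHT mice. The 12 choroid plexus markers did not match in this way: their sum was 361 to 3270 CPM with void and 3910 to 5740 with DHT, and void replicate 9, at 3270, was close to the DHT mice. The sample titles hold an S number that the labels do not explain, 4 to 11 in void mice and 18 to 23 in DHT mice. Whatever it stands for cannot be told apart from treatment. In bulk tissue, more cells of a type and more RNA per cell cannot be told apart either.

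The start regions of 5 of the 7 members were at hand in the RefSeq promoter table (GRCm38.p6), each window covering 250 bases before and 50 after an annotated start. Tor3a and Tor1b have no entry in it. The windows below are from the members with an entry that moved with DHT or whose groups did not overlap. Tor1aip1 had 2 windows and Tor1aip2 had 5, and only some of these are shown. They are shown because Tor3a and a short product of Tor1aip2 are known as interferon-responsive. Androgens act through nuclear receptors, so a nuclear receptor motif was searched too, but not that of the androgen receptor. Capitals mark a match to the gamma-activated sequence, a motif of interferon-gamma target genes, and the other letters are in lower case. Tor1aip1 and Tor1aip2 lie on opposite strands and are read through each other's start, so that their extents share 817 bases in RefSeq.
Tor4a, chr2:25196764-25197063, minus strand: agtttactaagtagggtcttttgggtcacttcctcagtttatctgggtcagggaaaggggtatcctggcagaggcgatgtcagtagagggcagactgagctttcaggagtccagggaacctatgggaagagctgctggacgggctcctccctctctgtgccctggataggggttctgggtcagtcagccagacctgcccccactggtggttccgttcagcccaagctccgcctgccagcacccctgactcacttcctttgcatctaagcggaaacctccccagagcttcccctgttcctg
Tor1aip1, chr1:156036431-156036730, minus strand: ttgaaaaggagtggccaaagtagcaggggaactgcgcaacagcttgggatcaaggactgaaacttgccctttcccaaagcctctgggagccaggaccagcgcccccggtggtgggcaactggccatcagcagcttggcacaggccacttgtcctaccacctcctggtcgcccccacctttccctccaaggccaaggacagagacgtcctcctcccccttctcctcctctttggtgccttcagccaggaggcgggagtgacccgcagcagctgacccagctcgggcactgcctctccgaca
Tor1aip2, first start, chr1:156035414-156035713, plus strand: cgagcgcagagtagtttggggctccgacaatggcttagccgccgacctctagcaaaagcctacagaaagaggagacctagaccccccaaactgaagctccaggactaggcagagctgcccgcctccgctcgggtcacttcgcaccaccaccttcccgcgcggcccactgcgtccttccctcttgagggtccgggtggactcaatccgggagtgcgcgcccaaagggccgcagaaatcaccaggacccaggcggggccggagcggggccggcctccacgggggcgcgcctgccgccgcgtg
Tor1aip2, downstream start, chr1:156040590-156040889, plus strand: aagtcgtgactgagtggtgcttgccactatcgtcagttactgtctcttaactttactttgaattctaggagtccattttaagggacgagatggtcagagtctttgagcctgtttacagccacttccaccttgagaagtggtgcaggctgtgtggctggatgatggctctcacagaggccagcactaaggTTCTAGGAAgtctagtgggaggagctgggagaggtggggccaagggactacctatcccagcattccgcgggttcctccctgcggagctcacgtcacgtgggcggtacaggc

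Both strands of the 10 member windows were searched for 4 motifs, and matches may overlap. Of these windows, 5 were of Tor1aip2. The gamma-activated sequence, TTCNNNGAA, was found in 2 windows, both of Tor1aip2, which overlap and hold the same site TTCTAGGAA. In the window shown it begins 61 bases before the start. The motif occurs in 8.33% of the 32544 distinct windows of this length. The core of the interferon-stimulated response element, 2 copies of GAAA with 2 bases of any kind between them, which 3.45% of windows hold, was in none of the member windows. The nuclear receptor hexamer AGGTCA, held by 16.2% of windows, was also not found in them. Nor was its direct repeat with 1 base between the copies, held by 0.0399%. The androgen receptor's own motif was not among the 4 searched. These letters are a description of the windows only, and no factor's binding was measured.

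With DHT, Tor3a and Tor4a were higher, by 2.17-fold and 1.71-fold. The cofactors were about equally shifted, by 1.18-fold each, while Tor1a, Tor1b and Tor2a lay within 1.09-fold of the void mice. Across all 17622 genes fitted, edgeR's quasi-likelihood test called 2.17% higher, where a call needs an adjusted p (Benjamini-Hochberg) below 0.05 together with a log2 fold change over 1, and 1 of the 7 members, Tor3a, was among these. With the adjusted p alone, 5.22% of all genes were higher and 3 of the 7 members, Tor3a, Tor4a and Tor1aip2, were higher. No member was lower by either rule, against 0.0227% and 0.261% of all genes. The median log2 fold change was 0.23 over the members and 0.01 over all genes. Because the family was proposed from this comparison, these counts say nothing about the family.

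**Figure D1:**
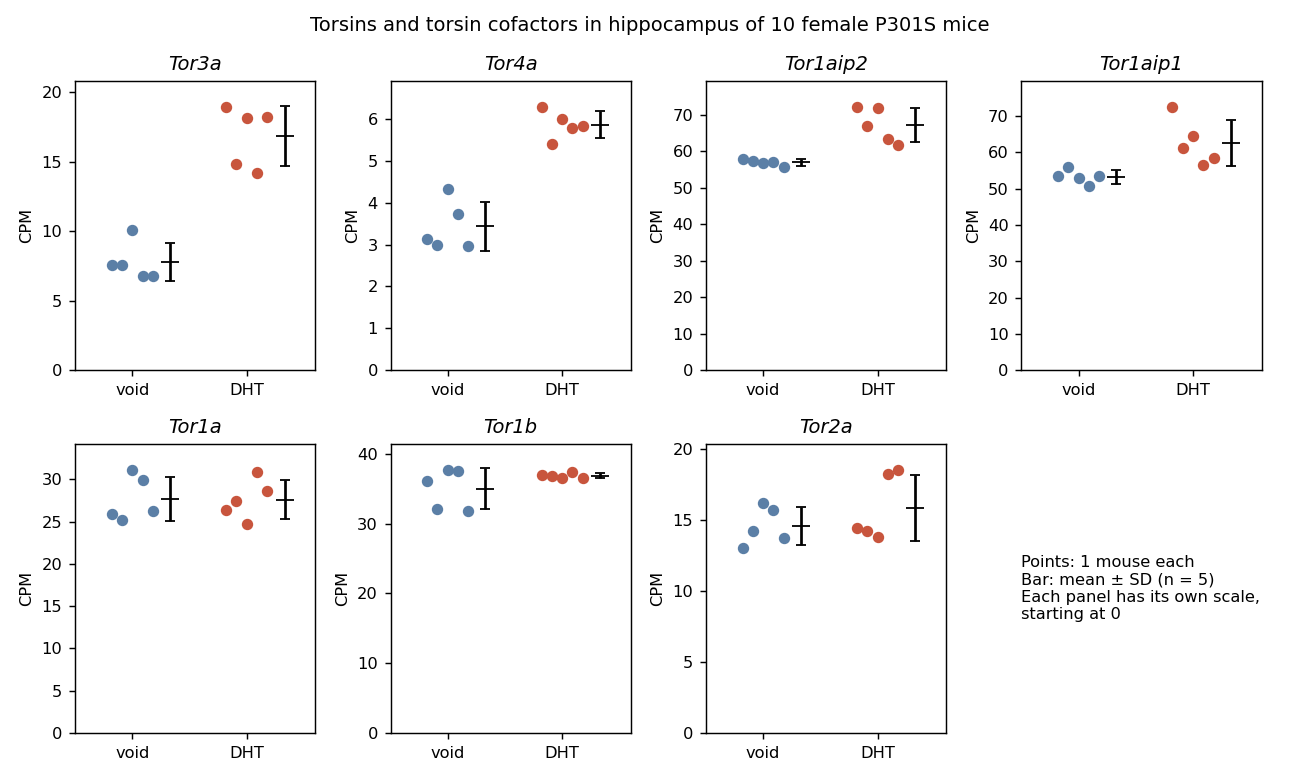
CPM of each member (y axis, each panel from 0) in void and DHT mice, 1 point per mouse, with the mean and SD of 5 mice beside the points. The groups are apart for Tor3a, Tor4a, Tor1aip1 and Tor1aip2 and overlap for Tor1a, Tor1b and Tor2a.

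Tor3a (ENSMUSG00000060519) encodes torsin-3A, first described as an ATP-dependent interferon-responsive protein. It was at 7.57, 7.57, 10.1, 6.79 and 6.77 CPM in void replicates 4, 5, 9, 10 and 11. In DHT replicates 1, 2, 3, 5 and 6 it was at 18.9, 14.8, 18.1, 14.2 and 18.2 CPM. The groups did not overlap, and void replicate 9 was the highest of its group while DHT replicates 2 and 5 were the lowest of theirs. The means were 7.77 ± 1.39 and 16.8 ± 2.16 CPM (SD, n = 5 each). On the log2 scale the difference was 1.11 with a standard error of 0.13. It ranked 1 by p and 432 by upward fold change. With each mouse left out in turn its log2 fold change lay between 1.04 and 1.23, the highest without void replicate 9.

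Tor4a (ENSMUSG00000059555), the least abundant member, encodes torsin-4A, one of the less studied torsins. Its levels were 3.13, 3, 4.34, 3.73 and 2.97 CPM in void replicates 4, 5, 9, 10 and 11. The DHT values were 6.28, 5.4, 6.01, 5.78 and 5.84 CPM in replicates 1, 2, 3, 5 and 6. Here too the groups were apart, with void replicate 9 nearest to the DHT mice. The means of 3.43 ± 0.594 and 5.86 ± 0.324 CPM (SD, n = 5 each) gave a log2 fold change of 0.77 (standard error 0.12), under the limit of 1 but past the adjusted p limit. Counts of Tor4a were 94 to 148 per void library and 193 to 287 per DHT library, so it is the member with the largest counting error.

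The genes that flank these members in the reference annotation were looked up after the members' values were seen. Abl2 and Fam20b, on either side of Tor3a, had log2 fold changes of -0.04 (standard error 0.07) and 0.09 (standard error 0.07). Nrarp and Nelfb, on either side of Tor4a, were at 0.02 (standard error 0.12) and -0.05 (standard error 0.08). None of these 4 genes passed the adjusted p limit.

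Tor1aip2 (ENSMUSG00000050565), which encodes LULL1 and, from another transcript, the interferon-responsive protein IFRG15, was tightly grouped in void mice. It was at 57.8, 57.5, 56.9, 57.1 and 55.6 CPM in void replicates 4, 5, 9, 10 and 11. With DHT it was at 72.1, 67.1, 71.9, 63.4 and 61.7 CPM in replicates 1, 2, 3, 5 and 6. All DHT mice were above all void mice, and the DHT mice spread more widely. The log2 fold change was 0.24 (standard error 0.06), past the adjusted p limit in the fit of all mice but in only 3 of the 10 fits that leave out a mouse. The counts do not separate the transcripts of LULL1 and IFRG15.

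Tor1aip1 (ENSMUSG00000026466), the LAP1 gene, had nearly the same fold. Its levels were 53.6, 55.9, 52.8, 50.7 and 53.4 CPM in void replicates 4, 5, 9, 10 and 11, and the DHT values were 72.4, 61.3, 64.6, 56.4 and 58.4 CPM in replicates 1, 2, 3, 5 and 6. The groups were apart, with void replicate 5 and DHT replicate 5 nearest to each other. Its log2 fold change of 0.23 (standard error 0.07) did not pass the adjusted p limit. Among all genes fitted, 5.39% had every DHT mouse above every void mouse, as 4 of the 7 members did, and 0.88% had every DHT mouse below, as no member did. Tor1aip1 and Tor1aip2 share 699 exon bases on opposite strands in the GENCODE M21 reference, 12.9% and 7.58% of their exon bases. Without a stated strand setting, reads there cannot be assigned to one of the pair.

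Tor1a (ENSMUSG00000026849), the torsinA gene, had almost equal levels in the groups. Void replicates 4, 5, 9, 10 and 11 were at 25.9, 25.2, 31.1, 29.9 and 26.3 CPM, and DHT replicates 1, 2, 3, 5 and 6 at 26.4, 27.4, 24.7, 30.9 and 28.6 CPM. The ranges overlapped almost fully. The log2 fold change was -0.0043 with a standard error of 0.08, and its sign turned with single mice left out.

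Tor1b (ENSMUSG00000026848), the closest relative of Tor1a, lies next to it, tail to tail, and is better known from tissues other than brain. It was at 36.1, 32.1, 37.7, 37.5 and 31.8 CPM in void replicates 4, 5, 9, 10 and 11, against 37.0, 36.9, 36.6, 37.4 and 36.6 CPM in DHT replicates 1, 2, 3, 5 and 6. The DHT mice lay within the void range. Void replicates 5 and 11, the lowest for Tor1b, were also the lowest for the choroid plexus markers, at 389 and 361 CPM. The log2 fold change of Tor1b was 0.07 (standard error 0.06). The extents of Tor1a and Tor1b share 3513 bases in the RefSeq table, though no exon bases in GENCODE M21.

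Tor2a (ENSMUSG00000009563), which encodes torsin-2A, was at 13, 14.2, 16.2, 15.7 and 13.7 CPM in void replicates 4, 5, 9, 10 and 11. In DHT replicates 1, 2, 3, 5 and 6 it was at 14.4, 14.2, 13.8, 18.2 and 18.5 CPM. DHT replicates 5 and 6 were above all other mice, and the remaining DHT mice lay among the void mice. The log2 fold change was 0.12 (standard error 0.11). The same DHT replicates 5 and 6 were the lowest DHT mice for Tor1aip1 and Tor1aip2. Of the exon bases of Tor2a, 13.2% overlap Ttc16 on the other strand.

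**Figure D2:**
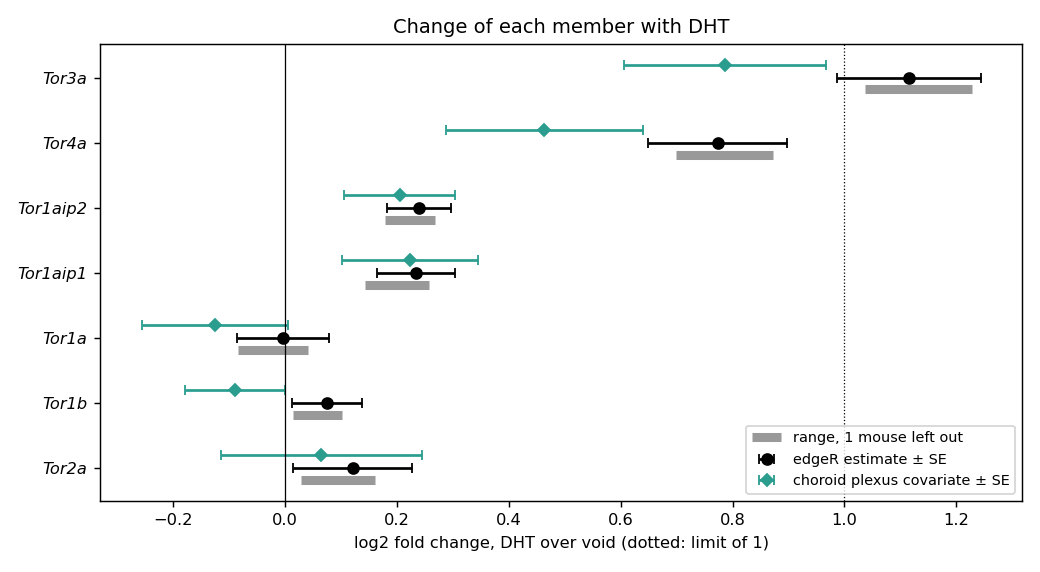
Log2 fold change of DHT over void mice (x axis) for each member, from edgeR with its standard error (circles), with the choroid plexus marker score as a covariate (diamonds, with standard error) and as the range over 10 fits that each leave out 1 mouse (grey bars). Tor3a stays above 1 with any mouse left out and is at 0.79 with the covariate. The covariate does not overlap between void and DHT mice.

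Lists of other genes tied to torsin function had medians that moved little, while single genes on them moved more. Of 20 nuclear envelope genes, all fitted, 2 passed the adjusted p limit upward and none downward, and their median log2 fold change was 0.08, against 0.01 over all genes fitted. That is 10.0% of the list beside 5.22% of all genes. The 2 were Syne2, which encodes nesprin-2, at 0.44 on the log2 scale (standard error 0.10, edgeR adjusted p = 0.0222), and Syne3. Syne3, whose product nesprin-3 links the nuclear envelope to intermediate filaments and binds torsinA, had 3.2 ± 0.656 CPM in void mice against 5.39 ± 1.01 in DHT mice (SD, n = 5 each). The difference was 0.75 on the log2 scale (standard error 0.17, edgeR adjusted p = 0.0235). Sun2, an inner nuclear membrane anchor of nesprins, differed by 0.25 on the log2 scale (standard error 0.10) and did not pass.

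No gene passed the adjusted p limit among 27 fitted genes of the nuclear pore, 24 other AAA+ ATPases, 5 genes of the lipin pathway of lipid synthesis and 5 genes linked to torsinA by interaction or dystonia. At an unadjusted p under 0.05 there was 1 gene in each of these lists. They were Sec13, a coat nucleoporin (log2 fold change 0.14, standard error 0.06), Katnal1, a katanin-like microtubule-severing protein (-0.14, standard error 0.05), Lpin3, a phosphatidate phosphatase (0.48, standard error 0.20), and Snapin, a synaptic vesicle adaptor (0.13, standard error 0.05). The next lowest p in the same lists belonged to Nup93 (0.09) and Nup98 (0.08) of the nuclear pore, Bcs1l (-0.13) of the AAA+ ATPases, Lpin2 (-0.09) and Ctdnep1 (0.06) of the lipin pathway, and Sgce (0.10) and Thap1 (-0.16) of the torsin-linked genes, each a log2 fold change. Thap1 encodes a transcription factor of Tor1a and is itself a dystonia gene. The median log2 fold changes of the 4 lists were 0.01, 0.0012, 0.05 and 0.02.

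Interferon-response genes formed the list in which the most genes passed. Of 52 fitted, 38 passed the adjusted p limit upward (73.1%) and 25 of these were also beyond the fold limit (48.1%), with a median log2 fold change of 1.05 and none lower. Of all genes fitted, 5.22% and 2.17% did so. The list was chosen with earlier results of these data known, so its shares are a description only. The 3 with the lowest p were Ifi27l2a, a gene induced by type I interferon (log2 fold change 2.56, standard error 0.30), Lgals3bp, a secreted glycoprotein gene (1.91, standard error 0.26), and Usp18, which removes ISG15 from proteins (2.42, standard error 0.34). In edgeR the adjusted p was 0.0067 for each. The fold of Tor3a, 1.11 on the log2 scale, was close to the middle of this list. It was also close to the median of 8 ependymal markers, 1.07, so this is not particular to interferon-response genes. The medians of 12 choroid plexus and 10 microglia markers were 2.13 and 0.56.

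**Figure D3:**
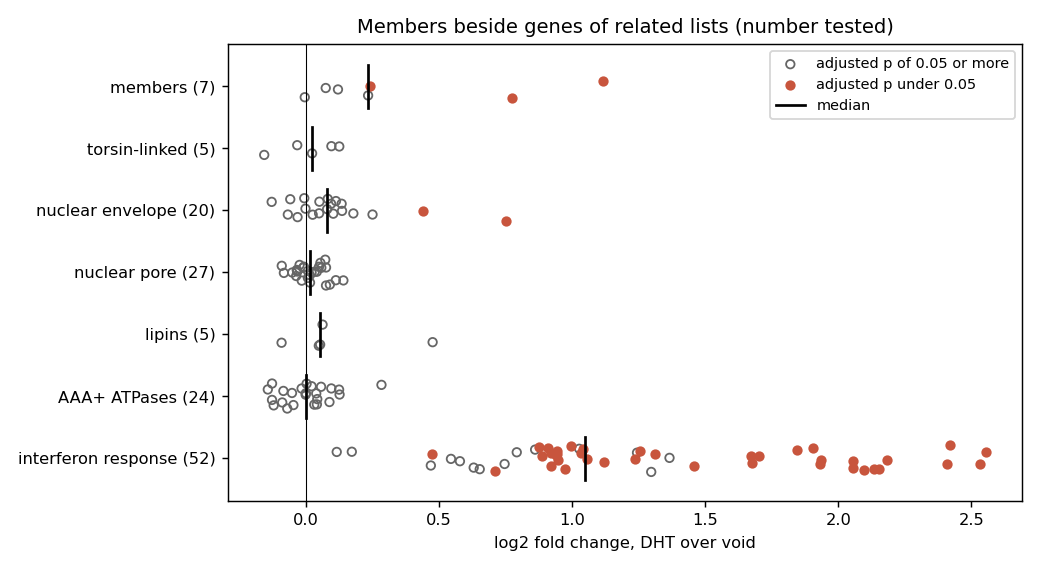
Log2 fold changes of DHT over void (x axis) for the members and the genes of 6 related lists (rows, number fitted in brackets), with filled points for genes at an adjusted p under 0.05 and a bar at each median. Interferon-response genes lie to the right with a median of 1.05, and the medians of the other 5 lists are between 0.0012 and 0.08.

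The summed CPM of the 53 interferon-response genes in the table, Oas3 included though too low to be fitted, was 324 to 427 in void mice and 494 to 1070 in DHT mice. DHT replicates 2 and 5, lowest for Tor3a among DHT mice, were also lowest for this sum, at 494 and 595. The same 2 were the lowest DHT mice for the choroid plexus markers, at 4110 and 3910, and for ependymal markers, at 58.1 and 56.9. For microglia markers replicate 2 was lowest, at 676, but replicate 5, at 783, was not among the lowest. Void replicate 9, highest for Tor3a among void mice, was at 356, within the void range, while its choroid plexus sum of 3270 was the highest of its group by far. The remaining void mice did not follow that sum. Replicates 4 and 5 both had 7.57 CPM of Tor3a at choroid plexus sums of 1720 and 389. Replicates 10 and 11 had 6.79 and 6.77 CPM at sums of 930 and 361. Markers of 10 microglia genes summed to 471 to 551 CPM with void and 676 to 1020 with DHT, 8 ependymal markers to 13.9 to 50.7 and 56.9 to 77.0 CPM. Of the microglia markers 7 of 10 passed the adjusted p limit upward, of the choroid plexus markers 4 of 12 and of the ependymal markers 3 of 8. Among all genes fitted, 5.22% did. Sums of the other marker lists overlapped between the groups. Neurons were at 10300 to 11500 CPM with void and 9460 to 11400 with DHT, astrocytes at 5950 to 8330 and 6820 to 8600, oligodendrocytes at 3290 to 4540 and 4100 to 4400, and endothelial cells at 254 to 367 and 282 to 338. Markers of meningeal fibroblasts summed to 82 to 147 CPM with void and 90.8 to 155 with DHT, those of striatum and thalamus to 94.7 to 122 and 116 to 182, and border macrophage, T cell and red blood cell markers to at most 15 CPM in any mouse. On these lists 3 single markers passed the adjusted p limit upward, Gfap of astrocytes (1.18 on the log2 scale, edgeR adjusted p = 0.00761), Igf2 of meningeal fibroblasts (1.68, 0.00931) and Ppp1r1b of striatum and thalamus (0.76, 0.0156). The part of these cell types in the member values was not tested. In a fit that took the choroid plexus score as covariate, Tor3a and Tor4a had log2 fold changes of 0.79 (standard error 0.18) and 0.46 (standard error 0.18) and no longer passed the adjusted p limit, and in that fit no gene of the table did so with a log2 fold change beyond 1. The score was -1.64 to 0.42 in void mice and 0.60 to 1.02 in DHT mice. As the groups do not overlap in it, this fit cannot cleanly tell the score and treatment apart.

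**Figure D4:**
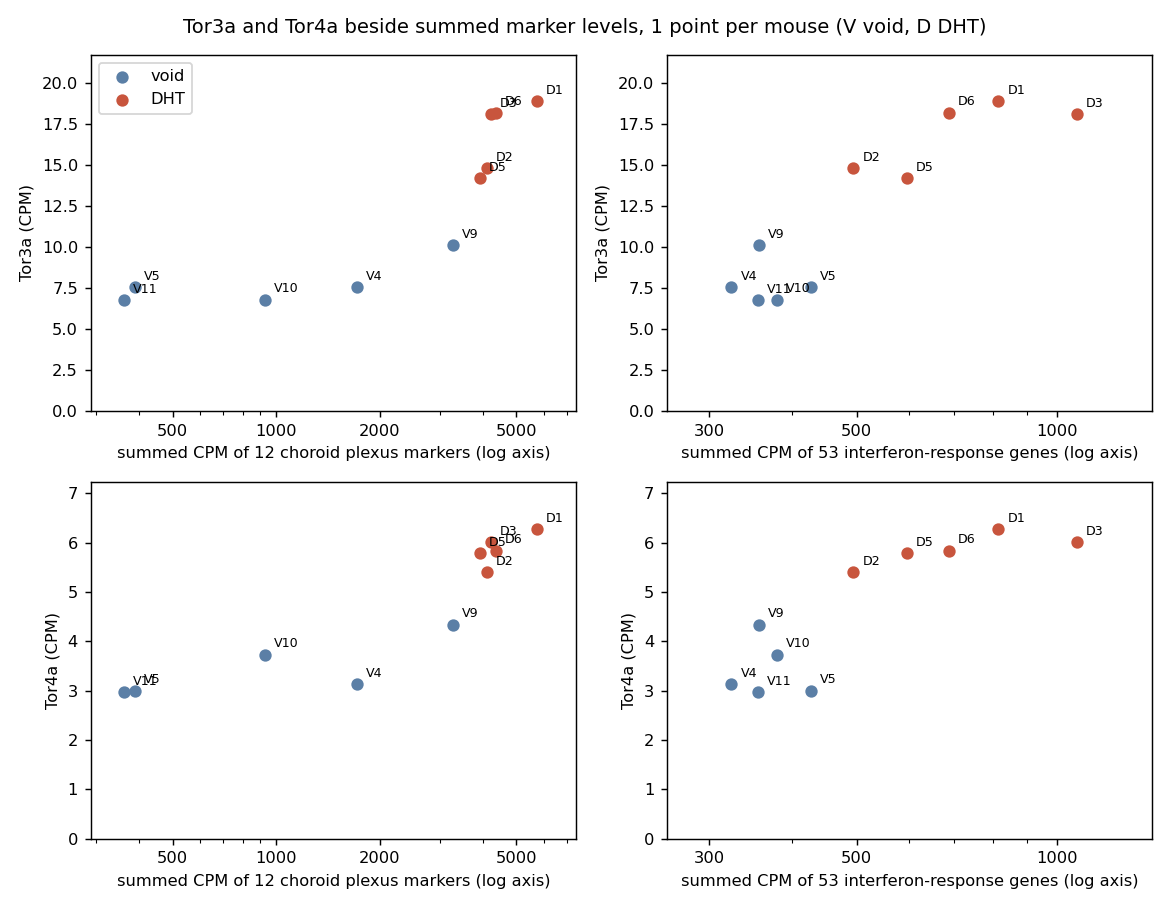
CPM of Tor3a (top) and Tor4a (bottom) in each mouse (y axes, from 0) against the summed CPM of 12 choroid plexus markers (left) and of 53 interferon-response genes (right) on log x axes. Void replicate 9 (V9) is next to the DHT mice for the choroid plexus sum and among the void mice for the interferon sum.

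Levels of different members can be compared only per length, so CPM were divided by the exon length of each gene in GENCODE M21. This comparison is made within each mouse, with void and DHT mice pooled. Means and spreads over the 10 mice thus include the differences between the groups, also that of Tor3a, by which the family was chosen. Averaged over the 10 mice, Tor1a was highest at 13.9 ± 1.18 CPM per kilobase (SD, n = 10), followed by Tor1aip1 at 10.7 ± 1.22, Tor1b at 6.75 ± 0.406, Tor1aip2 at 6.74 ± 0.684, Tor2a at 4.98 ± 0.626, Tor3a at 3.16 ± 1.3 and Tor4a at 1.41 ± 0.411. Of the 6 neighbouring pairs in this order, 5 differed in a two-sided exact sign-flip permutation test of the differences within mice. The p-values of these 5 in that test, adjusted over the 6 pairs, were 0.00391 to 0.00937. They measure only how steady a difference was over the mice, because a gene's length is the same in each mouse. Tor1b and Tor1aip2 did not differ beyond their spread, with a log2 difference of 0.007 ± 0.132 (SD, n = 10) and Tor1b higher in 5 of 10 mice (exact permutation test, adjusted p = 0.865). By group the order of their means was opposite, with Tor1b at 6.58 and Tor1aip2 at 6.18 CPM per kilobase in void mice, and 6.93 and 7.3 in DHT mice. Tor3a was above Tor4a in 10 of 10 mice, by 2.15-fold (adjusted p = 0.00391), and below Tor2a in 8 of 10. Both exceptions, replicates 1 and 3, were DHT mice. Tor2a and Tor3a were at 4.77 and 2 CPM per kilobase in void mice and at 5.19 and 4.33 in DHT mice.

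The lower end of the order did not depend on the length used. With coding length or the median transcript length in place of exon length, Tor2a, Tor3a and Tor4a stayed the lowest in that order, whereas the first places changed: Tor1b led with coding length and Tor1aip1 with transcript length. Of the summed CPM per kilobase of the 5 torsins, Tor3a made up 7.06 ± 0.891% in void mice and 13.5 ± 1.98% in DHT mice (SD, n = 5 each), and Tor4a 3.67 ± 0.291% and 5.56 ± 0.425%. Tor1a was the largest share in both, at 49.1 ± 0.903% and 43.1 ± 2%. The shares rest on exon length. With coding length, Tor1a was below Tor1b, Tor1aip2 and Tor1aip1 in the order of levels, and no shares were computed. These shares restate the comparison that led to the family and are given without a test.

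**Figure D5:**
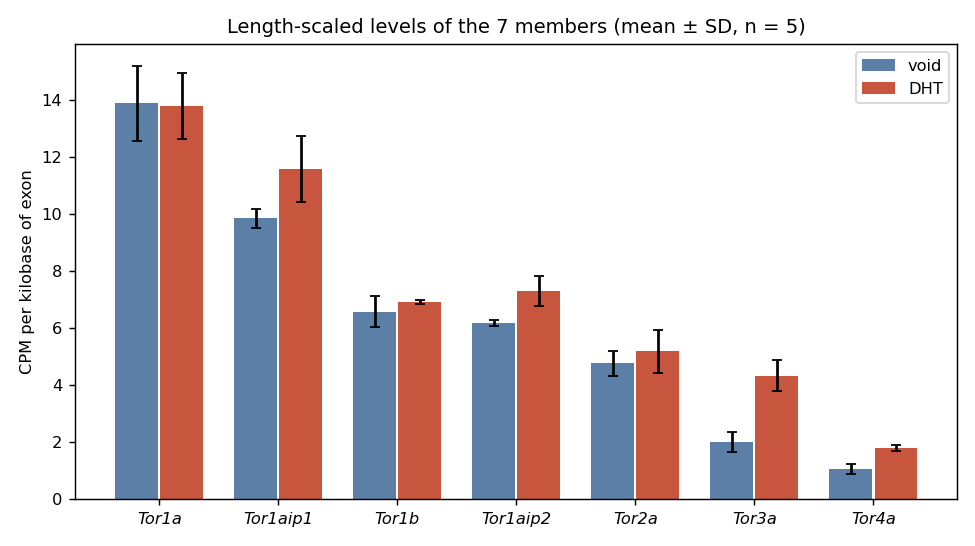
CPM per kilobase of exon (y axis) for the 7 members in order of their mean over all mice, with bars for the means of void and DHT mice and SD of 5 mice. Tor1a is highest at 13.9 over all mice and Tor4a lowest at 1.41.

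The genes whose levels varied most like Tor3a from mouse to mouse were sought after subtracting each group's mean, so that the difference between the groups played no part. Likeness was Pearson's r of log2 CPM over the 10 mice, among 13516 genes, and is a description that no test accompanies. The 8 most alike were Tbc1d9, Atp10d, Tax1bp3, Tcn2, Slc16a9, Paqr5, Angptl2 and Vps26c, with r from 0.942 to 0.921. Of these, Atp10d (a lipid-flipping ATPase), Slc16a9 (a monocarboxylate transporter), Angptl2 (a secreted angiopoietin-like protein) and Tcn2 (the vitamin B12 carrier transcobalamin) had log2 fold changes of 1.36, 1.07, 1.39 and 1 between the groups. The other 4, Paqr5, Tbc1d9, Tax1bp3 and Vps26c, were at 0.77, 0.48, 0.48 and 0.12. The list rested on single mice: without void replicate 9, 0 of the 8 remained among the 8 most alike, and without void replicate 10, 1 did.

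For the other members the 3 most alike genes were found in the same way. They were Rpl34, Erp29 and Swi5 for Tor1a (r 0.982 to 0.972), Car2, Plekhh1 and Slc24a5 for Tor1b (0.953 to 0.939), and Mpnd, C1qtnf4 and Abhd17a for Tor2a (0.995 to 0.991). For Tor4a they were Bcdin3d, Tnfrsf12a and Arsg (0.961 to 0.937), for Tor1aip1 Acadm, Ptp4a2 and Aox1 (0.962 to 0.939), and for Tor1aip2 Rp2, Mrps6 and Zfyve16 (0.968 to 0.945). No gene was on more than 1 of these lists. These are the highest r among 13516 genes over 10 mice, and taking the highest favours large values. What else they reflect was not tested.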

How the data were processed

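The data are raw counts per gene from bulk RNA-seq of hippocampus of 10 female P301S mice, 1 library per mouse. Per the paper's methods, the authors trimmed and filtered reads with HTStream, aligned them with STAR 2.7.10b and generated raw counts. The deposited counts are whole numbers with a different total in each library. The methods name the mm10 genome, whereas the submitters' processing notes name mm39. The annotation release and the handling of strand and shared reads are not given in the sources used here. Of 56884 genes, 51948 had a symbol in GENCODE M21, and for 51911 the version in the file was later than that of M21, so its coordinates were not used for the counts.

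Groups came from the sample titles. edgeR 4.0.16 under R 4.3.3 was used, with TMM scaling, filterByExpr (17622 genes left), its quasi-likelihood test and p-values adjusted over all genes by Benjamini and Hochberg. The standard error was obtained as the size of the log2 fold change over the root of the F statistic. The study used DESeq2, here an alternative. Likeness used log2 CPM with a prior count of 2 and genes of mean log2 CPM of at least 1. Total counts of 27188854 to 47113661 per library put 3 counts at 0.0628 to 0.111 CPM. The scripts were tested on simulated data in which 200 genes differed.

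The members and lists were chosen with earlier results of these data known. Named are all members, the 3 genes of lowest p in each pathway list and the genes most like each member, and the genes flanking Tor3a and Tor4a were added after values were seen. A gene that this rule names is not reported here. DESeq2, limma-voom, other normalizations and filters, a choroid plexus covariate, an unadjusted p, other lengths, a rank correlation and leaving out each mouse were the alternatives. Promoters came from RefSeq.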

Additional observations from a re-analysis of the deposited data

Results flagged for a closer look

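Within the void mice, replicate 9 stood apart for Tor3a, with a gap to the nearest mouse of 0.76 of the group's range, above Dixon's limit of 0.71 for 5 mice. It was at 10.1 CPM and the other void mice at 6.77 to 7.57. Of the 14 groups of mice examined over the 7 members, this was the only one past the limit, where chance gives about 0.7. The same mouse was the highest void mouse for Tor4a, Tor1a, Tor1b and Tor2a, at 4.34, 31.1, 37.7 and 16.2 CPM, and for the choroid plexus markers, at 3270 CPM. The part of choroid plexus RNA in its Tor3a level was not tested.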

How the results depend on the processing

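No paired analysis was possible because the labels name no pairs or litters of void and DHT mice. Tor3a was called higher under every alternative except the choroid plexus covariate, under which 0 members were called and 0 passed the adjusted p alone. That covariate also left 0 genes called higher, 0 called lower and 0 genes called on the pathway lists (25 in the fit reported), and the score itself differs between the groups. In the other alternatives with an adjusted p, 2 or 3 members passed it, and 4 had an unadjusted p under 0.05. Across the 10 fits that leave out 1 mouse, 175 to 513 genes were called higher, 0 to 7 lower and 15 to 38 on the pathway lists, 15 without void replicate 11 and 38 without DHT replicate 2, with 1 member called in each fit. The genes called higher were 250 without void replicate 4, 197 without void replicate 11, 175 without DHT replicate 1 and 242 without DHT replicate 3, against 382 with all mice. The 4 genes called lower became 8 with every gene of at least 1 count, 2 when each library had to hold at least 10 counts, and 12 when p was left unadjusted. The adjusted p of Tor1aip2 in edgeR was 0.0676 with DESeq2 size factors and 0.0974 with every gene of at least 1 count, and from 0.0552 to 0.176 without void replicates 4, 5, 10 or 11 or DHT replicates 1, 3 or 5. The near-zero log2 fold change of Tor1a turned to 0.005 with library size alone and ranged from -0.0835 to 0.0409 with 1 mouse left out, and that of Tor1b turned to -0.089 with the covariate. In the order of levels, 5 of 6 neighbouring pairs differed with coding length and with median transcript length as well, although the order of the first places changed, and 5 did so with any 1 mouse left out, where Tor1b and Tor1aip2 exchanged places in 3 of the 10 cases. With a rank correlation, 0 of the 8 genes most like Tor3a were among the 8 taken, though Tbc1d9 tied at place 7 with genes that were. With 1 mouse left out, 0 to 7 of the 8 remained. Beyond the smaller number of mice or genes, the cause was not tested. Depth limits Tor4a most, at 94 counts in 1 library.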
